A study of Mus musculus with 6 samples.

Results

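The genes described here encode the ligands, receptors and secreted inhibitors of Wnt signalling, with the core genes that carry the signal into the nucleus, measured in differentiating mouse myoblasts. They were chosen by symbol: every gene called Wnt, Fzd, Sfrp, Dkk or Rspo with a number, together with Axin2, Lef1, Tcf7, Tcf7l2, Lrp5, Lrp6 and Ctnnb1. That gave 48 of the 20659 genes that could be named on the array, namely 19 Wnt ligands, 10 Frizzled receptors, 2 co-receptors, 8 secreted inhibitors, 4 R-spondins, Ctnnb1, Axin2 and 3 TCF/LEF transcription factors. The cells were C2C12, an established line of mouse myoblasts that can form myotubes in culture. Of the 6 RNA samples, 3 were labelled si-NC, taken here as the control transfection, and 3 came from cells in which lncMGPF, a long noncoding RNA, was knocked down by siRNA (si-lncMGPF). Differentiation had been induced for 2 days. Nothing in the labels says that the 3 samples of a group were grown apart or how many siRNAs were used, so the p-values below reflect sample-to-sample spread that may be technical. No named probe carried the symbol of lncMGPF, and its level was not checked.

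Wnt proteins are secreted lipid-modified ligands that bind Frizzled receptors. With the co-receptors Lrp5 and Lrp6 this binding stops the destruction of beta-catenin, the product of Ctnnb1, which then enters the nucleus and switches on genes together with TCF/LEF factors. Secreted Frizzled-related proteins (Sfrp) bind Wnts, Dickkopf proteins (Dkk) mostly act on Lrp5 and Lrp6, and R-spondins strengthen the signal by keeping Frizzled receptors on the membrane. Other Wnts act without beta-catenin, through planar cell polarity or calcium. In skeletal muscle Wnts take part in specifying the embryonic lineage, in differentiation and in regeneration.

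Each sample was read on 1 array. By the scan identifiers, slide 1 carried all 3 si-NC samples together with replicate 1 of si-lncMGPF, and slide 2 the other 2 replicates of si-lncMGPF. On the slide 1 arrays 64.1% to 65.3% of probes were well above background, against 57.3% and 56.9% on slide 2. Over the tested probes si-lncMGPF replicate 1 correlated at 0.993 to 0.995 with the si-NC arrays and at 0.987 to 0.988 with its own group. Slide and knockdown overlap in part, and differences are therefore also given as the slide 1 array and the slide 2 arrays, each against the same si-NC mean. All 8 markers of differentiating muscle were well above background on every array. So were 3 of 4 fibroblast, 2 of 4 endothelial, 2 of 3 leukocyte, 1 of 3 adipocyte and 1 of 2 Schwann cell markers. Clearing background was therefore not particular to muscle markers and is no check of cell identity. The summed linear signal of the fibroblast markers was 75.3 to 90.2 in si-NC, beside 79.4 to 85.0 for muscle. The summed linear signal of 4 osteoblast markers, relative to the array's 75th percentile, was 0.286 to 0.317 in si-NC and 0.175 to 0.194 in si-lncMGPF. That sum rests on Bglap2, an osteocalcin gene and the only marker called, which fell by 0.84 on the log2 scale (SE 0.087, 1.79-fold lower, adjusted p = 0.0410 by limma). The call ended when any si-NC array or si-lncMGPF replicate 3 was left out, since 0 probes of the array passed then (1877 to 2696 at an unadjusted p below 0.05). Of the other 3 osteoblast markers none could be tested: Sp7 and Ibsp were above background on no array and Alpl on 1. The part of slide or of this marker in the results below was not tested. With 3 arrays a group, precision is limited.

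At 2 days of differentiation 31 of the 48 genes had a probe that cleared background on all 3 arrays of a group and could be tested, 28 of them on all 6 arrays. These were 12 of 19 Wnt ligands (Wnt1, Wnt4, Wnt5a, Wnt5b, Wnt6, Wnt7b, Wnt9a, Wnt9b, Wnt10a, Wnt10b, Wnt11 and Wnt16), 8 of 10 Frizzled receptors (all but Fzd5 and Fzd10), both co-receptors, 4 of 8 secreted inhibitors (Dkk2, Dkk3, Sfrp2 and Sfrp4), Ctnnb1, Axin2 and all 3 TCF/LEF factors. None of the R-spondins qualified, and Rspo4 was above background on 1 array. Wnt2, Wnt2b, Wnt3, Wnt3a, Wnt7a, Wnt8a, Fzd10, Dkk1, Dkk4, Sfrp1, Rspo1, Rspo2 and Rspo3 were well above background on 0 of 6 arrays. Fzd5 and Sfrp5 each reached 2 si-NC arrays and 1 si-lncMGPF array, and Wnt8b reached 1 array in each group, on different probes. Wnt11, Wnt9b and Fzd8 qualified through the si-NC arrays, with 2, 1 and 2 of the si-lncMGPF arrays above background. The floor differed by slide. The lowest signal well above background, as log2 relative to the array's 75th percentile, was -6.01 to -5.79 on slide 1. On the slide 2 arrays, both si-lncMGPF, it was -5.00 and -4.79. The part of this floor in the detection of single genes was not tested. A probe below background only limits the level and does not show that the gene is silent.

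**Figure D1:**
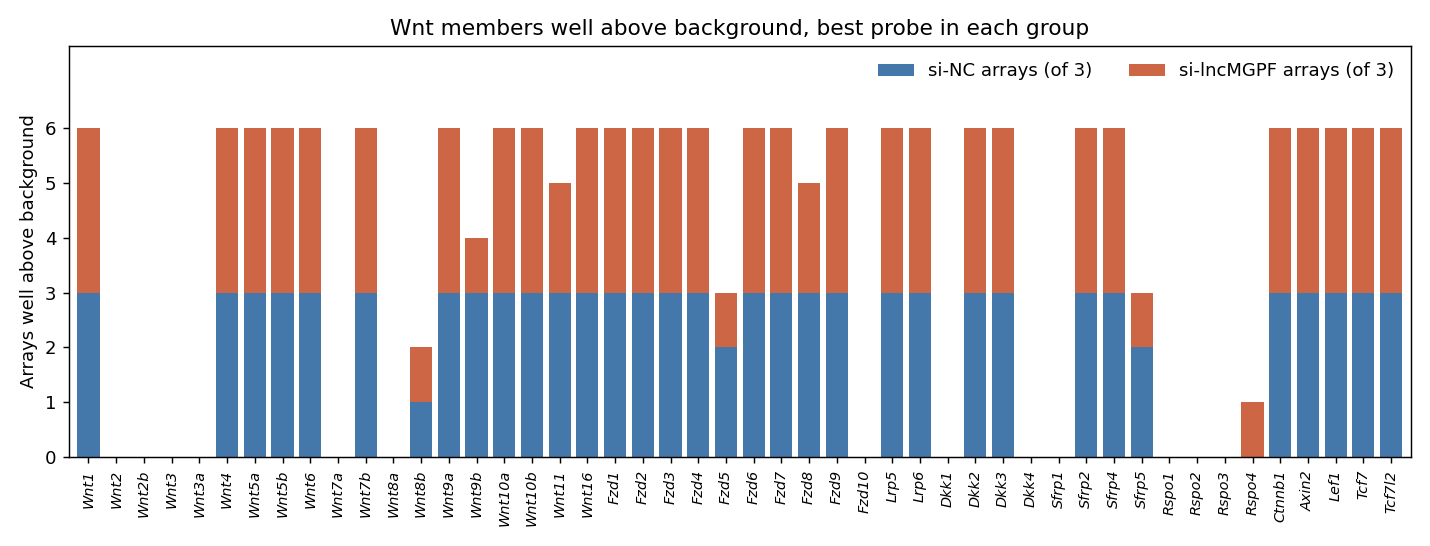
Number of arrays (y axis, 0 to 6) on which each of the 48 genes (x axis, by role) was well above background, stacked by group with the best probe in each group. Of the 48 genes, 28 reach 6 arrays and 13 have no bar.

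The letters upstream of these genes were searched for CTTTGA, the core of the TCF/LEF motif, on both strands of the 250 bases before each start. RefSeq promoter windows (GRCm38.p6) were used for 32 of the 48 genes, 41 windows in all. Member windows on a chromosome that was left out are not among them, though it was not left out of the windows of all genes. The motif stood in 5 of the 41 windows (12.2%), where 13.8% of all 32851 windows of this length hold it. Those 5 windows belong to Dkk1, Fzd1, Lef1, Wnt11 and Wnt5b. The E-box letters CANNTG, which myogenic bHLH factors bind, stood in 23 of the 41 (56.1%), against 66.2% of all windows. Shown are a window of Wnt11, a ligand whose arrays separated by group, and the only window of a TCF/LEF gene with a match, which is a Lef1 window. Capitals mark CTTTGA on the reverse strand. The Wnt11 window is chr7:98834862-98835111 and the Lef1 window chr3:131156044-131156293, both on the plus strand.
Wnt11: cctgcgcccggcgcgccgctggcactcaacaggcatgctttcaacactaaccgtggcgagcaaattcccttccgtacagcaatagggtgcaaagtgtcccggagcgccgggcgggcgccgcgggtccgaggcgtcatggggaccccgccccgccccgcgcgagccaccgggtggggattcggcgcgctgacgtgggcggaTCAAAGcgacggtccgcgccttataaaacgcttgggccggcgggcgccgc
Lef1: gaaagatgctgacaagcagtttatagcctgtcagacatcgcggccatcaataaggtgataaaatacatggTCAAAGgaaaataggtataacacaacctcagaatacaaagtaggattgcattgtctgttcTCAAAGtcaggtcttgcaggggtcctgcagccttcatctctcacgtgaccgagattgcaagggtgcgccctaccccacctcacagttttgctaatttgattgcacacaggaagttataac
The Wnt11 match begins 50 bases before the start that its window leads to, and the Lef1 matches 180 and 120 bases before theirs. The other Lef1 windows begin at chr3:131110047, chr3:131110073 and chr3:131112541, upstream of the printed one, and hold no match. The other Wnt11 window holds none either. The Axin2 window does not hold these letters. A match is a description of the sequence and neither a bound site nor a cause of a difference.

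The comparison of si-lncMGPF with si-NC asks whether these genes differ when lncMGPF is knocked down. None of the 31 tested members passed an adjusted p of 0.05 (limma, Benjamini-Hochberg over all 24661 tested probes), where 0.147% of the 14265 tested genes and 0.105% of probes did. The lowest adjusted p among them was 0.14, for Wnt9a. Of the 31, 16 had a positive and 15 a negative log2 difference, with a median of 0.0095, beside 0.02 over all tested genes. An unadjusted p below 0.05 was reached by 7 members (22.6%, where 14.2% of all tested genes reached it). Of these 4 were higher in si-lncMGPF, where 6.04% of all genes were, and 3 lower, where 8.14% were. The groups did not overlap for 10 members (32.3%, where 22.4% of all tested genes did not), 4 of them higher, beside 9.7% of all genes, and 6 lower, beside 12.7%. Wnt11, among the lower members in both counts, passed the filter only through the si-NC arrays, the group where it is higher. With probes above background on all 6 arrays alone, 6 of 28 members had an unadjusted p below 0.05 (limma), beside 3660 of 21560 probes. The first count is of genes with 1 probe each and the second of all probes. These shares describe a short list and were not tested against the rest of the array. Without si-lncMGPF replicate 1, the only si-lncMGPF array on the control slide, 4 of the 31 members passed the adjusted threshold, but so did 16.6% of all probes. Those members were Wnt7b, Dkk2, Wnt9a and Wnt11, the last kept by the filter through the si-NC arrays alone. In that fit the slide cannot be told apart from the knockdown.

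**Figure D2:**
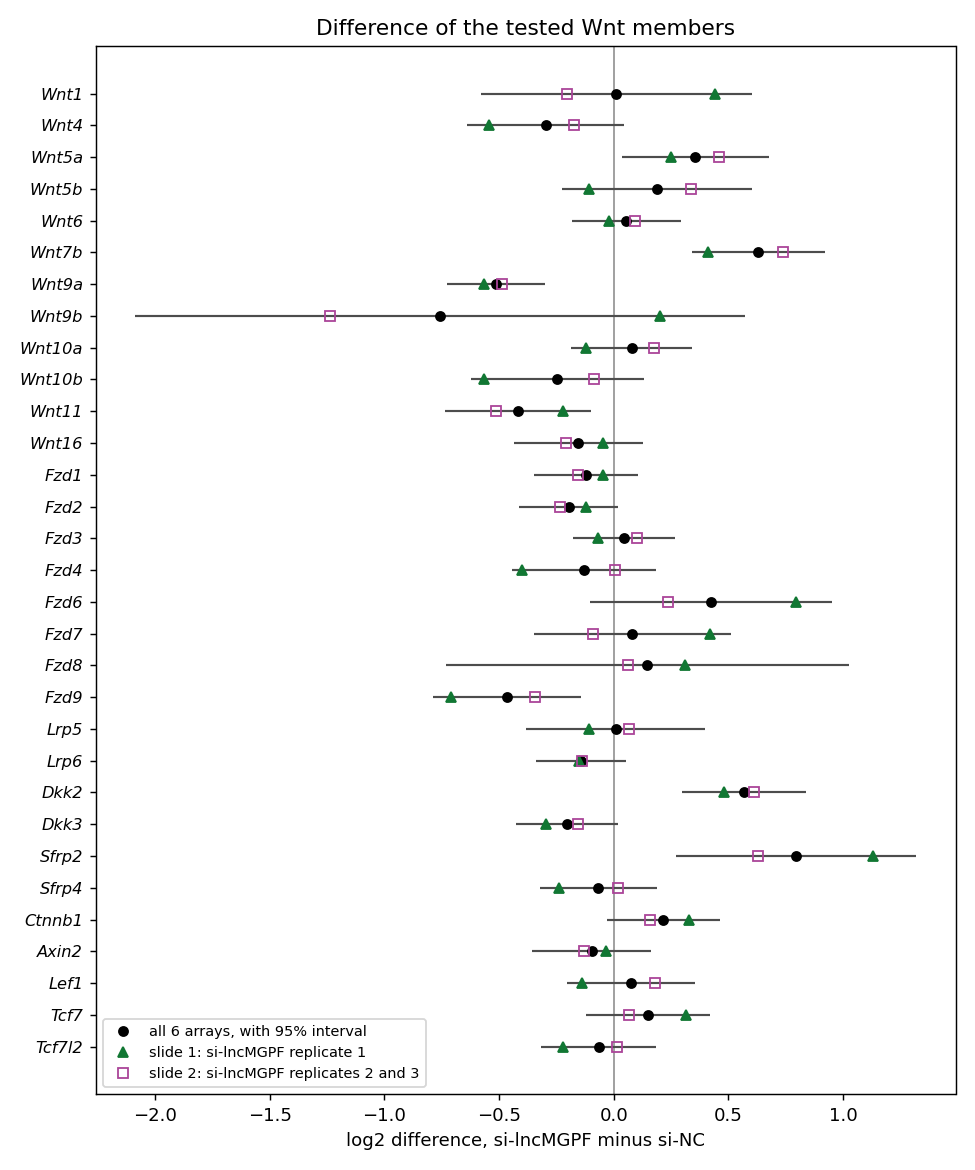
The log2 difference of each tested member (x axis, si-lncMGPF minus si-NC) over all 6 arrays with its 95% interval from limma, beside the difference of the slide 1 array and of the slide 2 arrays from the same si-NC mean. The intervals of Wnt7b, Wnt5a, Dkk2 and Sfrp2 lie above 0 and those of Wnt9a, Wnt11 and Fzd9 below it.

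Wnt9a, a ligand known from joint formation, had the smallest p of all members. Its signal, as log2 of the ratio to the array's 75th percentile, was 0.95, 1.09 and 0.98 in si-NC and 0.44, 0.58 and 0.47 in si-lncMGPF, here and below in the order of replicates 1, 2 and 3. Every si-lncMGPF array lay below every si-NC array, and the spread within a group was small (SD 0.071 and 0.074, n = 3 each). The difference was -0.51 (SE 0.090, 1.43-fold lower, unadjusted p = 0.000873, adjusted p = 0.14 by limma). It was -0.57 within slide 1 and -0.48 on slide 2.

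Wnt7b, a ligand of epithelia and bone, had the largest positive difference of the tested ligands. It read -3.26, -3.28 and -3.34 on the si-NC arrays and -2.88, -2.47 and -2.63 on the si-lncMGPF arrays. All si-lncMGPF arrays were higher, with those on slide 2 highest. The difference was 0.63 (SE 0.12, 1.55-fold higher, adjusted p = 0.168 by limma), with 0.41 within slide 1 and 0.74 on slide 2.

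Wnt5a, the best known ligand of the branch without beta-catenin, read -3.21, -3.46 and -3.31 in si-NC and -3.07 and -2.86 on si-lncMGPF replicates 1 and 2. Its spot on replicate 3 was marked as an outlier by the scanner software and left out, so the fit rests on 5 arrays. Both measured si-lncMGPF arrays lay above the si-NC arrays, by 0.36 on average (SE 0.13, adjusted p = 0.283 by limma). Its close paralogue Wnt5b had 0.19 (SE 0.17), with -0.11 within slide 1 and 0.34 on slide 2.

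Wnt11, a ligand of the planar polarity branch whose window is printed above, read -4.21, -4.07 and -4.10 in si-NC and -4.35, -4.80 and -4.49 in si-lncMGPF. The groups did not overlap, and the slide 2 arrays were lowest. The difference was -0.42 (SE 0.13, adjusted p = 0.246 by limma), with -0.22 within slide 1 and -0.51 on slide 2. Replicate 2 of si-lncMGPF, the lowest, was not well above background.

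Wnt4, a ligand of kidney development, was lower on both of its probes. The brighter Wnt4 probe read -1.74, -1.46 and -1.44 in si-NC and -2.09, -1.69 and -1.75 in si-lncMGPF, a difference of -0.30 (SE 0.14, adjusted p = 0.359 by limma), and replicate 2 of si-lncMGPF lay above the lowest si-NC array. The other Wnt4 probe read -3.15, -3.07 and -3.15 in si-NC and -3.33, -3.40 and -3.35 in si-lncMGPF. Those groups did not overlap, with a difference of -0.24 (SE 0.082, adjusted p = 0.26 by limma).

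The groups overlapped for the other tested ligands. Wnt10b, known for holding back adipogenesis, had -0.25 (SE 0.16), made up of -0.57 within slide 1 and -0.084 on slide 2. Its paralogue Wnt10a had 0.078 (SE 0.11), Wnt16 -0.15 (SE 0.12) and Wnt6 0.056 (SE 0.10). A second Wnt16 probe, above background on 0 si-NC arrays and 1 si-lncMGPF array, was not tested. Wnt9b had -0.76 (SE 0.56), with si-lncMGPF arrays at -4.65, -6.99 and -5.19, of which only replicate 1 was well above background. Wnt1, a classical ligand of the beta-catenin branch, had 0.012 (SE 0.25) on its tested probe, with 0.44 within slide 1 and -0.20 on slide 2. Its other probe was above background on 0 of 6 arrays, and the level of Wnt1 is uncertain.

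**Figure D3:**
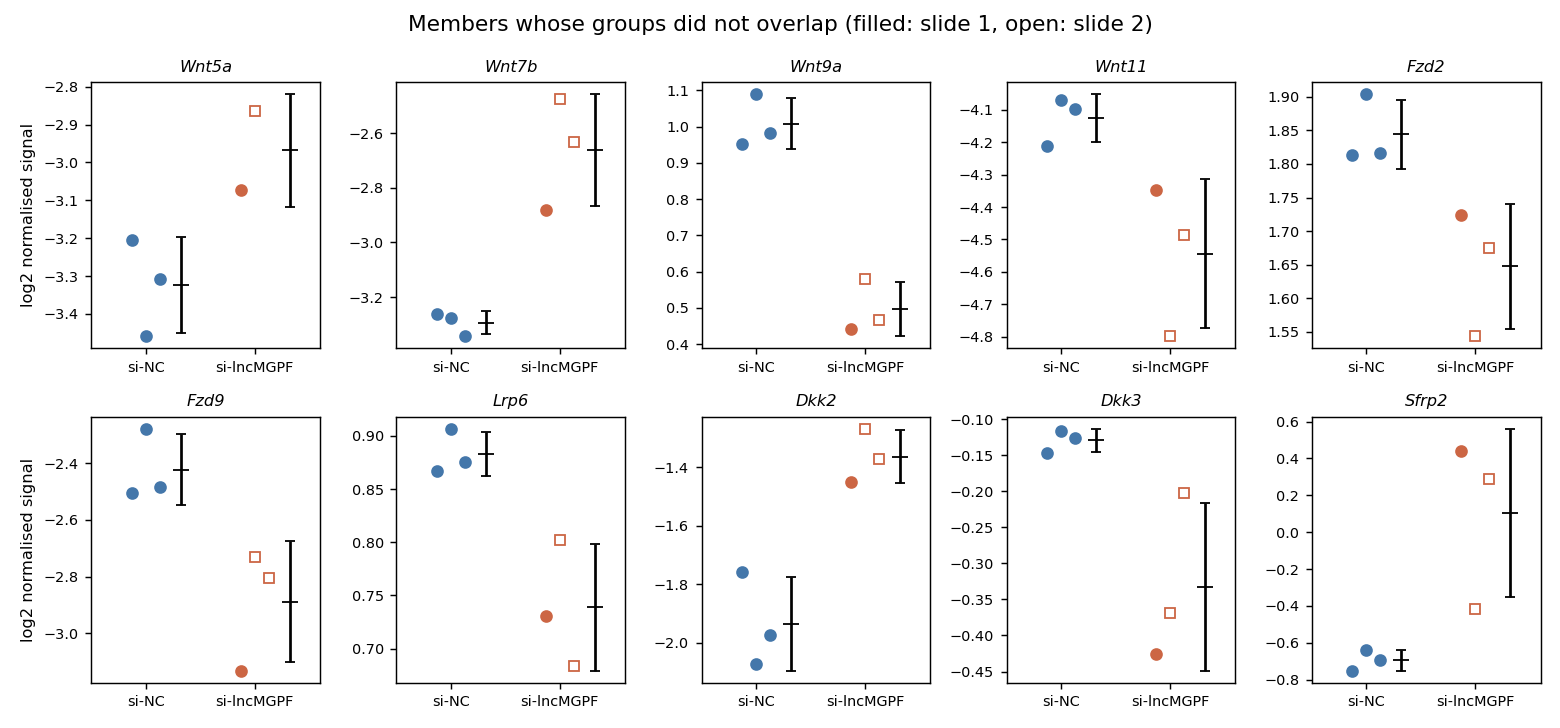
Log2 normalised signal (y axis, relative to each array's 75th percentile, scale differs by panel) on each array for the 10 members whose groups did not overlap, with the group mean and SD beside the points. Wnt7b, Wnt5a, Dkk2 and Sfrp2 are higher in si-lncMGPF and the other 6 lower; filled points are slide 1 and open squares slide 2.

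Among the receptors Fzd9, a Frizzled known from brain and bone, had the smallest p on the probe that stood for the gene. It read -2.50, -2.28 and -2.48 in si-NC and -3.13, -2.73 and -2.80 in si-lncMGPF. The groups did not overlap, and the slide 1 si-lncMGPF array was lowest. The Fzd9 difference was -0.47 (SE 0.14, 1.38-fold lower, adjusted p = 0.229 by limma), with -0.71 within slide 1 and -0.34 on slide 2.

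Fzd2, a receptor for Wnt5a among other ligands, did not overlap on either of its probes. The brighter one read 1.81, 1.90 and 1.82 in si-NC and 1.72, 1.54 and 1.67 in si-lncMGPF, a difference of -0.20 (SE 0.091, adjusted p = 0.345 by limma). The dimmer Fzd2 probe had -0.51 (SE 0.12, adjusted p = 0.199 by limma), with means of -3.84 ± 0.079 in si-NC and -4.34 ± 0.19 in si-lncMGPF (SD, n = 3 each). Both probes had the same sign and differed in size.

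Fzd7, a receptor through which Wnt7a acts on muscle stem cells, gave different answers on its probes. The brighter probe read -0.90, -1.15 and -1.11 in si-NC and -0.63, -1.31 and -0.98 in si-lncMGPF, a difference of 0.081 (SE 0.18) with overlap. The other Fzd7 probe read -1.64, -1.57 and -1.69 in si-NC and -1.75, -2.97 and -3.28 in si-lncMGPF. There the slide 1 array sat just under the si-NC arrays and the slide 2 arrays far below. The difference of -1.03 (SE 0.37, adjusted p = 0.27 by limma) was -0.12 within slide 1 and -1.49 on slide 2. Probe sequences were not used here, so which transcripts each probe reads is unknown.

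The other tested Frizzled genes overlapped between groups. Fzd1 had -0.12 (SE 0.095), Fzd3 0.045 (SE 0.093), Fzd4 -0.13 (SE 0.13) and the dim Fzd8 0.15 (SE 0.37). Fzd6, tied to planar polarity, had 0.42 (SE 0.22), with values of -2.39, -2.57 and -2.50 in si-NC and -1.69, -2.57 and -1.92 in si-lncMGPF. Replicates 1 and 3 of si-lncMGPF were higher than all si-NC arrays and replicate 2 was not.

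Of the co-receptors, Lrp6 read 0.87, 0.91 and 0.88 in si-NC and 0.73, 0.80 and 0.68 in si-lncMGPF. The groups did not overlap, and the difference was -0.14 (SE 0.082, 95% interval -0.34 to 0.053, adjusted p = 0.416 by limma). The second Lrp6 probe had -0.072 (SE 0.083) with overlap. Lrp5 read 0.57, 1.10 and 1.02 in si-NC and 0.79, 1.07 and 0.86 in si-lncMGPF. Its si-NC arrays spanned the si-lncMGPF values, and the difference was 0.0095 (SE 0.16, 95% interval -0.38 to 0.40).

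**Figure D4:**
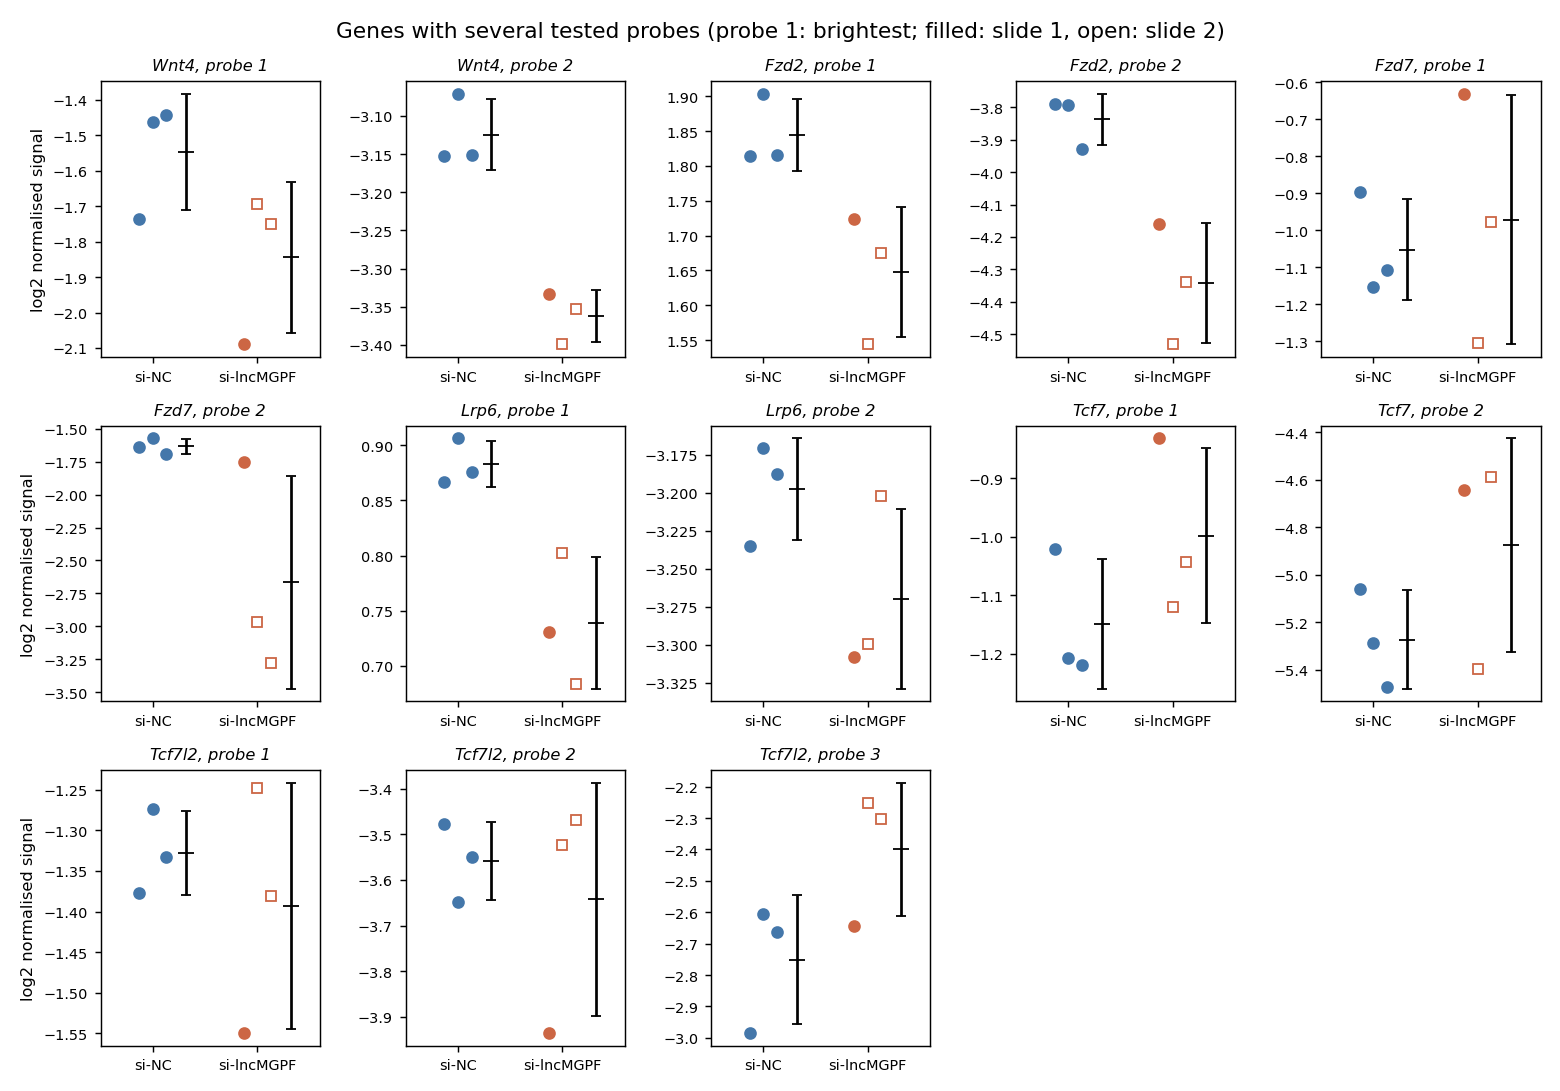
Log2 normalised signal (y axis, scale differs by panel) on each array for every tested probe of the 6 genes with more than 1, with group means and SD. Both probes of Wnt4, Fzd2 and Lrp6 are lower in si-lncMGPF, whereas Fzd7 and Tcf7l2 have probes on opposite sides of 0.

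The secreted inhibitors held the largest positive difference of the 31 members. Sfrp2, a Wnt-binding protein, read -0.75, -0.64 and -0.69 in si-NC and 0.44, -0.42 and 0.29 in si-lncMGPF. All si-lncMGPF arrays were higher, replicate 2 by the least, and the SD was 0.46 in si-lncMGPF against 0.057 in si-NC (n = 3 each). The difference was 0.80 (SE 0.22, 1.74-fold higher, adjusted p = 0.223 by limma), with 1.13 within slide 1 and 0.63 on slide 2.

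Dkk2, a Dickkopf that can block or support Lrp signalling depending on context, read -1.76, -2.07 and -1.97 in si-NC and -1.45, -1.27 and -1.37 in si-lncMGPF. The si-lncMGPF arrays were all higher. The difference was 0.57 (SE 0.11, 1.48-fold higher, adjusted p = 0.174 by limma), with 0.48 within slide 1 and 0.61 on slide 2.

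Dkk3, a divergent member of the Dickkopf family, read -0.15, -0.12 and -0.13 in si-NC and -0.43, -0.37 and -0.20 in si-lncMGPF. The groups did not overlap, and the difference was -0.20 (SE 0.093, adjusted p = 0.343 by limma). Sfrp4 had -0.066 (SE 0.11) with overlap. The 4 tested inhibitors thus lay on both sides of 0, 2 positive and 2 negative.

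Downstream of the receptors, Axin2, a negative regulator and a widely used read-out of beta-catenin activity, read -1.03, -0.86 and -0.90 in si-NC and -0.96, -0.92 and -1.19 in si-lncMGPF. The groups overlapped, with a difference of -0.096 (SE 0.11, 95% interval -0.36 to 0.16, adjusted p = 0.674 by limma). Its second probe was above background on 0 of 6 arrays. Ctnnb1, which encodes beta-catenin, read 4.04, 3.92 and 3.98 in si-NC and 4.31, 4.04 and 4.24 in si-lncMGPF. Replicate 2 of si-lncMGPF lay within the si-NC range, and the difference was 0.22 (SE 0.10, 95% interval -0.029 to 0.46, adjusted p = 0.354 by limma).

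The TCF/LEF factors bind DNA and recruit beta-catenin. Lef1, often itself a target of the pathway, read -1.90, -1.89 and -1.93 in si-NC and -2.04, -1.66 and -1.79 in si-lncMGPF. The slide 1 si-lncMGPF array was below the si-NC arrays and the slide 2 arrays above them, for a difference of 0.075 (SE 0.12, 95% interval -0.21 to 0.35). Tcf7 read -1.02, -1.21 and -1.22 in si-NC and -0.83, -1.12 and -1.04 in si-lncMGPF. Those groups overlapped, with a difference of 0.15 (SE 0.11, 95% interval -0.12 to 0.42), and a dim second probe of Tcf7 had 0.40 (SE 0.23). Tcf7l2 read -1.38, -1.27 and -1.33 in si-NC and -1.55, -1.25 and -1.38 in si-lncMGPF, a difference of -0.065 (SE 0.11, 95% interval -0.32 to 0.19). Its other probes had -0.085 (SE 0.14) and 0.35 (SE 0.15), so the sign depended on the probe.

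Of 70 other genes of the pathway, chosen by role, 69 were on the array, 53 were tested, and 0 passed the threshold (limma). An unadjusted p below 0.05 (limma) was reached by 8 (15.1%, beside 14.2% of all tested genes). Of these 2 were higher, where 6.04% of all genes were, and 6 lower, where 8.14% were. Celsr1 and Tnfrsf19, among the 6 lower, passed the filter only through the si-NC arrays, the group where they are higher. The median difference of the 53 was 0.014, with 28 positive and 25 negative. For 14 of the 53 the groups did not overlap (26.4%, beside 22.4% of all tested genes). Of these 4 were higher, beside 9.7% of all genes, and 10 lower, beside 12.7%, with Celsr1 among the 10. Without si-lncMGPF replicate 1, 8 of the 53 passed, in the fit where 16.6% of all probes did. That is a share of probes and not of genes. Trabd2b, a membrane protease that can inactivate Wnts, had the smallest p of the 53. It read -2.57, -2.40 and -2.52 in si-NC and -2.89, -3.29 and -3.24 in si-lncMGPF, without overlap. Its difference was -0.64 (SE 0.13, 1.56-fold lower, adjusted p = 0.181 by limma), with -0.39 within slide 1 and -0.77 on slide 2. Wls, which carries Wnts to the cell surface, had 0.19 (SE 0.086) and Porcn, the enzyme that attaches their lipid, 0.17 (SE 0.14). Among modulators and receptors, Wif1, Frzb, Sost, Sostdc1, Kremen2, Gpc3, Gpc4, Ror1, Lgr4, Lgr5, Lgr6 and Rnf43 did not qualify for the test.

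Inside the cell, all 14 listed cytoplasmic genes were tested, 10 positive and 4 negative. Apc2, a relative of the scaffold Apc, had -0.31 (SE 0.080) without overlap, and Apc had 0.10 (SE 0.12). Gsk3b, the kinase that marks beta-catenin for destruction, had 0.10 (SE 0.17) on its brightest probe and -0.032 and -0.22 on the others. Of 8 tested planar polarity genes 3 were positive and 5 negative. Daam1, a formin that binds Dishevelled, had -0.37 (SE 0.10). Celsr1, a cadherin of this branch, had -0.46 (SE 0.18) and -0.26 without si-lncMGPF replicate 1, and it qualified through the si-NC arrays, with 2 of 3 si-lncMGPF arrays above background. Of 11 listed target genes 9 were tested, 5 positive and 4 negative. Nkd2, a feedback inhibitor that binds Dishevelled, had -0.35 (SE 0.084) on its brighter probe and 0.21 (SE 0.084) on the other, each without overlap and on opposite sides of 0. Fosl1 had 0.31 (SE 0.083), Ccn5 0.25 (SE 0.079) and the cyclin gene Ccnd1 0.25 (SE 0.14). Tnfrsf19, dim and above background on 1 of 3 si-lncMGPF arrays, had -0.80 (SE 0.31), with -0.030 within slide 1 and -1.19 on slide 2.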

How the data were processed

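Cy3-labelled total RNA was hybridised to 1-colour Agilent arrays, per the labels. The deposited scanner files give linear intensity per spot from Feature Extraction 11.0.1.1; per the file headers its processed signal is corrected for background and spatial trend within each array. The deposited series table held the same values at 44397 of 44397 spots, unscaled between arrays. Here 117 to 134 outlier spots per array were dropped, and log2 signals were taken relative to each array's 75th percentile and averaged per probe, which hides a shift of most transcripts in 1 direction. A probe was well above background where at least 0.5 of its spots were. Probes so on every array of either group (24661 of 39429) entered limma 3.58.1 in R 4.3.3 (lmFit, eBayes, no covariate, two-sided, Benjamini-Hochberg). That step was tested on simulated data with independent noise and no slide effect, so its behaviour under a slide effect was not tested. Accessions matched to RefSeq symbols named 27234 probes, and the brightest tested probe stood for a gene. The headers name another genome build, so array positions are not printed. Tested members are named with their difference, and with every array value where groups did not overlap, the unadjusted p was below 0.05, an alternative called them or they are core genes. Other pathway genes named are up to 12 with the smallest unadjusted p below 0.05, plus Wls, Porcn, Gsk3b, Apc and Ccnd1. Extra values (Wnt9b, Fzd6, second probes) were chosen after they were seen. Members and lists were chosen with earlier results of these data known.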

Additional observations from a re-analysis of the deposited data

How the results depend on the processing

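The alternatives were quantile and median scaling, normexp with an offset of 50 on median spot signals, other filters on dim probes, slide as a fixed or random block, slide 1 alone, a replicate block, a trended robust prior, the series table, gene means over probes, and leaving out each array. Symbols from a gene name column of the scanner files were not run, because such a column was not found. The count of called members stayed 0 under each except without si-lncMGPF replicate 1, where it was 4 (Dkk2 0.61, Wnt7b 0.74, Wnt9a -0.48, Wnt11 -0.51). With 1 array left out, called members ran from 0 to 4, other pathway genes from 0 to 8 and probes from 0 to 4105, against 26 with all arrays: 4105 without si-lncMGPF replicate 1, 4 without its replicate 2 and 0 without any other array. Called probes were 6 with quantile scaling, 10 with slide as a fixed block, 1 on slide 1 alone and 0 without a filter on dim probes (5277 at an unadjusted p below 0.05). With the replicate block, 0 probes were called (4430 at an unadjusted p below 0.05) and 0 members. Deviations of same-numbered samples correlated at 0.29, 0.45 and -0.069, and those of other pairs at -0.41 to 0.042. The si-lncMGPF replicates also differ in slide, so these values do not decide whether samples were paired. Members above background on at least 2 arrays of a group numbered 33. Over all tested genes the median difference from the si-NC mean was -0.073 within slide 1 and 0.057 on slide 2. Beside that shift, signs turned, with no call on either side and the cause not tested, as follows. Slide as a fixed block, and slide 1 alone, gave -0.069 for Fzd3, -0.14 for Lef1, -0.11 for Lrp5, -0.12 for Wnt10a, -0.11 for Wnt5b, -0.020 for Wnt6, 0.20 for Wnt9b, -0.29 for Gsk3b and -0.029 for Ccnd1. These settings give the same difference, that of si-lncMGPF replicate 1 from the si-NC arrays, because slide 2 holds no si-NC array. Slide as a random block gave -0.036 for Fzd3, -0.076 for Lef1, -0.072 for Lrp5, -0.062 for Wnt10a, -0.021 for Wnt5b and -0.17 for Gsk3b. Gene means gave -0.48 for Fzd7, 0.067 for Tcf7l2 and -0.049 for Gsk3b, quantile scaling -0.21 for Fzd8 and normexp -0.019 for Wnt1. With 1 array left out the range was -0.21 to 0.0059 for Fzd4, -0.089 to 0.25 for Fzd7, -0.20 to 0.57 for Fzd8, -0.011 to 0.18 for Lef1, -0.16 to 0.11 for Lrp5, -0.11 to 0.019 for Sfrp4, -0.14 to 0.014 for Tcf7l2, -0.20 to 0.27 for Wnt1, -0.041 to 0.29 for Gsk3b and -0.011 to 0.20 for Apc. Wnt9a, Wnt7b, Dkk2, Sfrp2, Fzd9, Wnt11 and Wnt5a, picked here by their low unadjusted p in the same arrays, kept their sign under the alternatives run on them. Axin2, Ctnnb1, Dkk3, Fzd1, Fzd2, Fzd6, Lrp6, Tcf7, Wnt4, Wnt10b and Wnt16 kept theirs too, so a stable sign was not particular to the members with a low p.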
